A study of Mus musculus with 9 samples.

Results

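AgNPs and silver ions (Ag+) were compared with each other at the same mass dose, so that the difference between a group of EBs given particles and a group given dissolved silver could be read without passing through the unexposed controls. The comparison takes 6 of the 9 arrays of the series, chosen by their sample labels: 3 arrays of EBs kept with AgNPs at 5.0 µg/ml and 3 arrays of EBs kept with Ag+ at 5.0 µg/ml. The AgNPs were citrate-coated particles of 20 nm, and the Ag+ was dissolved silver acetate, dosed by its silver. The paper reports that AgNPs at this dose released part of their silver as Ag+ into medium without cells. EBs given AgNPs may therefore have met dissolved silver beside the particles. The comparison does not separate particles from the Ag+ they release. The other 3 arrays hold control EBs that received no silver. EBs (embryoid bodies) are aggregates in which embryonic stem cells (ESCs) begin to differentiate once the factors that keep them pluripotent are withdrawn. All 3 groups came from 1 feeder-free C57BL/6 mouse ESC line, formed EBs in hanging drops until day 3 and were collected 24 h later. The replicates are 3 biological replicates per group from that line, and no array holds EBs given citrate or acetate without silver. RNA was measured on Affymetrix Mouse Gene 2.0 ST arrays, and the deposited values are RMA signals on the log2 scale (background-corrected, quantile-normalized and summarised per probe set), so that a difference of 1 is a 2-fold change.

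The arrays were close in overall signal. Their medians over the named probe sets lay between 5.03 and 5.08, the correlation of AgNP arrays with Ag+ arrays was 0.992 to 0.996, against 0.994 to 0.996 within a group, and no pair of arrays was identical. The cell type was checked against marker genes. Of 9 markers of ESCs and epiblast, 7 lay above the median probe set (5.06), as did 8 of 9 of visceral endoderm and 6 of 6 measured of mesoderm. Among the ESC markers 0 were called in limma and 2 were higher with AgNPs at an unadjusted p under 0.05, Zfp42 and the de novo DNA methyltransferase gene Dnmt3b, whose signal was 10.29 ± 0.16 with AgNPs, against 9.86 ± 0.26 with Ag+ and 10.39 ± 0.17 in the controls (SD, n = 3 each). The labels call the cells ESCs, and the arrays carry ESC genes beside those of the first differentiating layers. Of 7 fibroblast markers 2 lay above the median probe set, of 6 macrophage markers 1 and of 6 measured trophoblast markers 4, and 0 of these 19 were called in limma's test. At an unadjusted p under 0.05 they gave 1 macrophage marker higher (Cd68, 0.27) and 1 lower (Aif1, -0.29). Summed signals of the fibroblast markers were 30.6 to 31.1 with AgNPs, 30.8 to 31.1 with Ag+ and 30.4 to 32.1 in the controls. Those of the macrophage markers were 25.2 to 25.4, 25.1 to 25.6 and 25.4 to 25.8 in the same order. The trophoblast markers summed to 29.75 to 30.48 with AgNPs, 30.48 to 31.23 with Ag+ and 29.17 to 30.82 in the controls. Of these 6 markers 5 had a difference below 0, at a median of -0.22.

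Silver particles dissolve slowly and can be taken up by endocytosis, after which they reach lysosomes, whereas Ag+ crosses membranes through metal carriers and binds thiol groups. Cells answer protein damage by transcribing chaperone genes under heat shock factors, and answer an excess of metal by transcribing metallothionein genes under the metal-responsive factor Mtf1. In an EB, an outer layer of visceral endoderm takes up material through the receptors cubilin and megalin, while inner cells pass through a streak-like stage to mesoderm, with lateral and cardiac fates favoured by BMP and paraxial fates patterned by Notch.

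EBs with AgNPs differed from EBs with Ag+ in a small set of genes, and most of that set was higher with AgNPs. Of 25341 named probe sets, 129 were called at an adjusted p under 0.05 in limma (0.509%), 92 of them higher with AgNPs (0.363%) and 37 lower (0.146%). The spread was estimated from all 9 arrays, while the difference itself is the mean of 3 AgNP arrays minus that of 3 Ag+ arrays. The leading gene was Cubn, which encodes cubilin, the peripheral membrane receptor that binds intrinsic factor with vitamin B12, albumin and apolipoprotein A1. Its signal was 9.24, 8.84 and 8.67 with AgNPs, against 6.32, 5.62 and 5.49 with Ag+ and 9.43, 9.10 and 8.96 in the controls. The lowest AgNP array lay 2.35 above the highest Ag+ array, and the AgNP and control arrays overlapped. The difference was 3.11 ± 0.23 (SE, adjusted p = 0.00151), an 8.63-fold higher signal with AgNPs. At the other end stood Tcf15, the transcription factor paraxis of somite epithelia, with 5.18, 5.19 and 5.45 with AgNPs and 6.39, 6.91 and 7.38 with Ag+, with 5.00, 5.14 and 4.87 in the controls. Here the Ag+ arrays were above all others, with a difference of -1.62 ± 0.21 (SE, adjusted p = 0.0135). Of the 129 probe sets, 86 differed 1.5-fold or more and 33 differed 2-fold or more, 27 of these higher and 6 lower. With the thresholds of the study for differentially expressed genes, a fold change of 1.5 and an unadjusted p under 0.05, 130 were higher and 62 lower (0.758% in both directions). In limma, 2105 of the 25341 named probe sets had an unadjusted p under 0.05 at any fold, a background for the unadjusted counts of the lists below.

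A fit of the 6 AgNP and Ag+ arrays alone called 44 probe sets, 39 of them among the 129, and 32 of the 129 kept their call whichever of the 9 arrays was left out (25 higher, 7 lower). Left out singly, AgNP replicates 1, 2 and 3 gave 50, 44 and 45 calls, Ag+ replicates 1, 2 and 3 gave 88, 37 and 43, and control replicates 1, 2 and 3 gave 105, 53 and 94. For Tcf15 the call was lost when AgNP replicate 1 or 2 or Ag+ replicate 2 was left out (difference -1.61 to -1.57). The intervals of most genes were narrow: the 95% interval of the difference lay within 1.5-fold in both directions for 23789 of the named probe sets (93.9%).

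**Figure D1:**
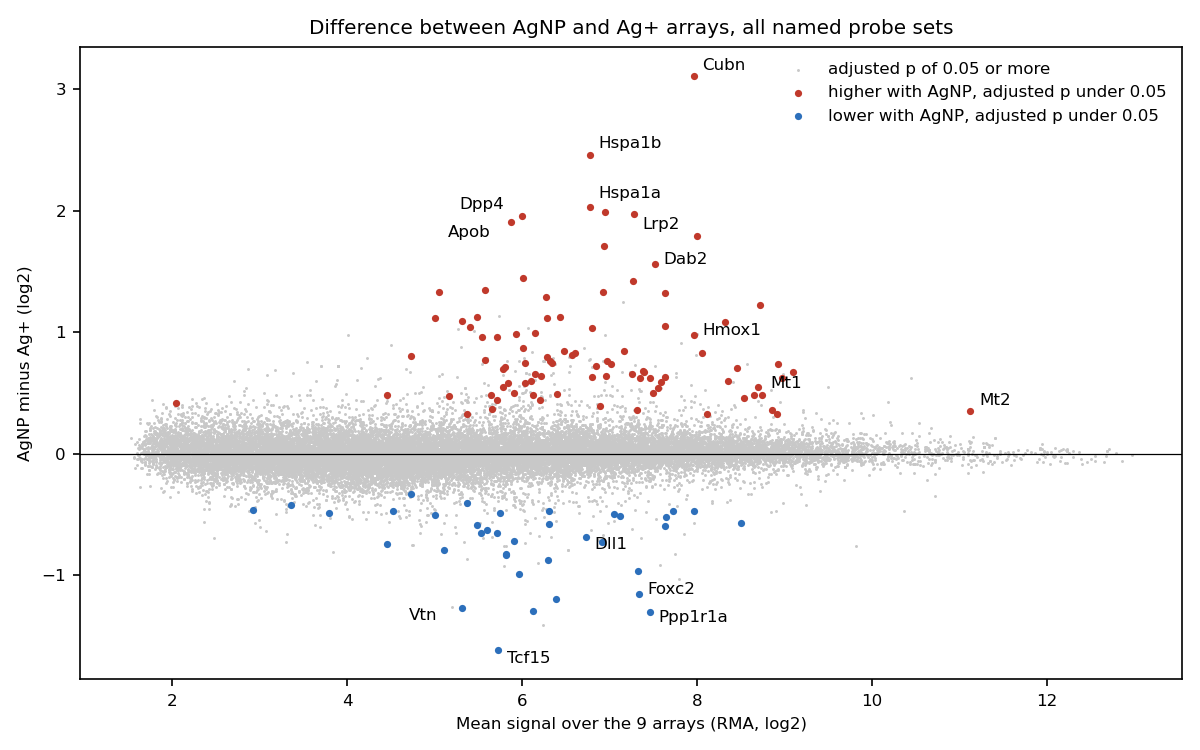
Difference of the AgNP mean minus the Ag+ mean (log2, y axis) against the mean signal over the 9 arrays (RMA, log2, x axis), 1 point per named probe set, with coloured points at an adjusted p under 0.05 (limma). The 92 points above 0 reach 3.11 (Cubn) and the 37 below 0 reach -1.62 (Tcf15).

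Inducible chaperones were higher with AgNPs, in 2 of 15 genes of the HSP70 family. Hspa1b, an inducible HSP70 chaperone, had signals of 8.14, 8.45 and 9.10 with AgNPs, against 6.19, 5.97 and 6.14 with Ag+ and 5.47, 5.81 and 5.71 in the controls. Each AgNP array lay above each Ag+ array, and the Ag+ arrays lay above the controls by less than the distance between AgNP and Ag+. The difference was 2.46 ± 0.21 (SE, adjusted p = 0.00188), 5.5-fold. Its neighbour Hspa1a, which encodes an almost identical protein, had 7.93, 8.37 and 8.84 with AgNPs, against 6.49, 6.34 and 6.23 with Ag+ and 5.67, 5.60 and 5.49 in the controls. The 3 groups did not overlap in Hspa1a, and AgNPs exceeded Ag+ by 2.03 ± 0.19 (SE, adjusted p = 0.00257), 4.07-fold. Both calls held whichever array was left out. The genes are near-identical copies, so how the signal divides between them is uncertain. A probe set naming both had 4.40, 4.27 and 5.32 with AgNPs, against 3.64, 3.78 and 3.64 with Ag+ and 3.76, 3.59 and 3.65 in the controls, and its difference of 0.98 did not pass (adjusted p = 0.155).

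The other 13 HSP70 genes were not called, and 12 of the 15 had an interval within 1.5-fold. Hspa8, the constitutive cytosolic member, differed by 0.02 (95% interval -0.10 to 0.13), and Hspa5, the chaperone of the endoplasmic reticulum, by 0.01 (95% interval -0.14 to 0.16). The median over the 15 was 0.06, beside 0.00 over all 22180 genes, of which 0.406% were called higher and 0.162% lower. This list and those below were chosen with earlier results of these data known, so their counts and medians describe the members and test no list. Among 16 other heat shock chaperones 1 was called, the small chaperone gene Hspb1, at 6.22, 6.01 and 6.16 with AgNPs and 5.38, 5.60 and 5.68 with Ag+, with 5.91, 5.90 and 5.74 in the controls. The AgNP arrays were above the others, and the difference was 0.58 ± 0.09 (SE, adjusted p = 0.0389). A further probe set of Hspb1 differed by -0.42 and was not called (adjusted p = 0.212). Hspb1 itself kept no call when any of the 9 arrays was left out (difference 0.49 to 0.64). Cryab, the alpha-crystallin small chaperone, differed by 0.66 (95% interval 0.33 to 0.99) without passing (adjusted p = 0.138), and Hsph1, a nucleotide exchange partner of HSP70, by 0.18 (95% interval -0.03 to 0.40).

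The sequences before the starts of Hspa1b and Hspa1a show how alike the copies are: without gaps, 247 of 250 positions (98.8%) are identical. They are RefSeq promoter sequences of GRCm38.p6, the 250 bases before the annotated start, at chr17:34959239-34959488 for Hspa1b and chr17:34972157-34972406 for Hspa1a, both on the minus strand and written 5′ to 3′. Capitals mark the heat shock element pair, GAANNTTC or TTCNNGAA on either strand, both of which read the same on the opposite strand.
Hspa1b: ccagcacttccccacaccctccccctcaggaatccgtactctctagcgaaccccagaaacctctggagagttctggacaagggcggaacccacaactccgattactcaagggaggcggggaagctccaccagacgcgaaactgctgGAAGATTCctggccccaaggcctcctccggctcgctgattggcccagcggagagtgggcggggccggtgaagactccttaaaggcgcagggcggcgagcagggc
Hspa1a: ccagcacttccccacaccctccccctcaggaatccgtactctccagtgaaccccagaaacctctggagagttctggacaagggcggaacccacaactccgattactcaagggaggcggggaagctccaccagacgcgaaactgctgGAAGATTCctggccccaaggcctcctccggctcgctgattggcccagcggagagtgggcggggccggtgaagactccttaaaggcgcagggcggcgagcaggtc
Both windows hold 1 match, 104 to 97 bases before the start, and 12.8% of 32851 promoter windows of this length hold at least 1. The pair lengthened by 1 more unit (GAANNTTC followed by NNGAA, or TTCNNGAA followed by NNTTC) is in 0.466% of windows and in neither of these.

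Metallothioneins, small cysteine-rich proteins that bind zinc, copper and silver, were higher with AgNPs than with Ag+ in 2 of 5 measured genes of a list that also holds Mtf1, at a list median of 0.08. Mt1 had signals of 9.04, 9.10 and 9.25 with AgNPs, against 8.58, 8.59 and 8.75 with Ag+ and 8.49, 8.42 and 8.44 in the controls. The AgNP arrays were all above the Ag+ arrays, which in turn lay above the controls. The difference was 0.49 ± 0.07 (SE, adjusted p = 0.033), 1.4-fold. Mt2 had 11.49, 11.53 and 11.60 in the AgNP arrays, against 11.18, 11.20 and 11.18 in the Ag+ arrays, and 10.59, 10.71 and 10.63 in the controls. The 3 groups were fully separated, with the Ag+ arrays tightly grouped between AgNP and control, and AgNPs exceeded Ag+ by 0.35 ± 0.06 (SE, adjusted p = 0.0443), 1.28-fold. Against the controls, which the 2 comparisons share, Mt2 differed by 0.90 with AgNPs (adjusted p = 0.00112, where 0.0868% of probe sets were called) and by 0.55 with Ag+ (adjusted p = 0.00178, where 2.28% were called). Mt1 lost its call when any 1 AgNP array, any 1 Ag+ array or control replicate 2 or 3 was left out (difference 0.43 to 0.54). Mt2 lost its call whichever of the 9 arrays was left out (difference 0.32 to 0.38).

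The sequences before Mt1 and Mt2 are shown for the metal response element core, TGCACNC or TGCGCNC on either strand, in capitals. They are the 250 bases before the annotated starts at chr8:94178839-94179088 and chr8:94172368-94172617 (RefSeq, GRCm38.p6), both on the plus strand and written 5′ to 3′.
Mt1: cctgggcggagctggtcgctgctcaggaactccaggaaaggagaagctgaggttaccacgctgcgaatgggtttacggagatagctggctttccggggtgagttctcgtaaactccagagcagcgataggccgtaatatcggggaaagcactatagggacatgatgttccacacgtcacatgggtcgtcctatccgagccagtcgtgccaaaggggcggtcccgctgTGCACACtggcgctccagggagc
Mt2: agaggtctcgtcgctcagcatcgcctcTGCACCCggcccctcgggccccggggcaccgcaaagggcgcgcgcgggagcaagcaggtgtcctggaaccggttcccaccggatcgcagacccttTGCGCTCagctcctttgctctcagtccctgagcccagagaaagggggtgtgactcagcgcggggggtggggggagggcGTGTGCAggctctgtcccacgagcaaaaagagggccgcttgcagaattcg
Mt1 holds 1 match, 23 to 17 bases before the start. Mt2 holds 3, which begin 223, 128 and 50 bases before it, the last on the opposite strand. Over all windows, 21.4% hold at least 1 match, 5.17% at least 2 and 1.26% at least 3. Matches outside the 250 bases, such as after the annotated start, were not counted. The counts for Mt1 and Mt2 therefore compare these windows and not the whole promoters.

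Of 18 measured carriers and stores of zinc, copper and iron, 0 were called in limma, 1 had an unadjusted p under 0.05 (the zinc exporter gene Slc30a4, at 0.30), and all 18 intervals lay within 1.5-fold. Fth1, the ferritin heavy chain, differed by 0.05 (95% interval -0.08 to 0.19). Genes of the Nrf2 and antioxidant list gave 3 calls of 24 measured, all higher with AgNPs, at a list median of 0.03. Hmox1, which encodes the haem-degrading enzyme haem oxygenase 1, had 8.37, 8.37 and 8.97 with AgNPs, against 7.57, 7.39 and 7.83 with Ag+ and 7.66, 7.73 and 7.78 in the controls. The Ag+ and control arrays overlapped and the AgNP arrays lay above both, with a difference of 0.97 ± 0.16 (SE, adjusted p = 0.0451), 1.97-fold. Glrx, the glutaredoxin gene, differed by 1.09 (adjusted p = 0.0353) and Me1, the NADPH-producing malic enzyme, by 1.05 (adjusted p = 0.0214), and in both the AgNP and control arrays overlapped. Hmox1 lost its call whichever of the 9 arrays was left out (difference 0.77 to 1.09). Glrx lost its call when any 1 AgNP array, any 1 Ag+ array or control replicate 2 was left out (difference 0.95 to 1.21). Me1 lost its call when AgNP replicate 1 or 2, Ag+ replicate 2 or 3 or control replicate 2 was left out (difference 0.93 to 1.06).

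Gclm, Txnrd1, Srxn1, Ddit3, Cdkn1a and Mdm2, further readouts of oxidative, unfolded protein and DNA damage responses, were not called. In the Nrf2 and antioxidant list 7 of 24 genes had AgNP arrays all above the Ag+ arrays and 0 all below (6.99% and 5.61% of all genes), and 5 were higher at an unadjusted p under 0.05. Gclm, the modifier subunit of glutathione synthesis, had 7.84, 7.76 and 7.79 with AgNPs and 7.54, 7.46 and 7.42 with Ag+, with 7.50, 7.57 and 7.62 in the controls. The AgNP arrays lay above the others, but the difference of 0.32 (95% interval 0.18 to 0.45) did not pass (adjusted p = 0.0724). Txnrd1, the cytosolic thioredoxin reductase, differed by 0.16 (95% interval -0.02 to 0.33) and Srxn1, sulfiredoxin, by 0.11 (95% interval -0.07 to 0.29). Ddit3, the transcription factor CHOP of the unfolded protein response, differed by 0.09 (95% interval -0.05 to 0.23). The p53 targets Cdkn1a, a cell cycle inhibitor, and Mdm2, a p53 ubiquitin ligase, differed by -0.06 (95% interval -0.27 to 0.14) and 0.07 (95% interval -0.14 to 0.28). Within the p53 and apoptosis list 0 of 18 genes were called in limma, 1 was higher at an unadjusted p under 0.05 (Btg2, an antiproliferative gene), and all 18 intervals lay within 1.5-fold.

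The unfolded protein and ATF4 list gave 1 call of 20, Atf3, a stress-induced transcription factor. In 5 of its genes the AgNP arrays all lay above the Ag+ arrays and in 0 below (6.99% and 5.61% of all genes), and 3 were higher at an unadjusted p under 0.05. Atf3 had 7.20, 7.45 and 7.59 with AgNPs, against 6.60, 6.66 and 6.70 with Ag+ and 6.81, 6.87 and 6.90 in the controls, so that the AgNP arrays lay above the controls and the Ag+ arrays below them. Its difference was 0.76 ± 0.09 (SE, adjusted p = 0.0101). Atf3 lost its call when AgNP replicate 2 or Ag+ replicate 2 was left out (difference 0.75 to 0.77). Among 17 immediate early genes, 8 had AgNP arrays all above the Ag+ arrays (6.99% of all genes did so) and 3 were called, at a median of 0.17. They were Ccn2, a matricellular protein of the YAP response (0.49, adjusted p = 0.037), Klf6, a zinc finger factor (0.48, adjusted p = 0.0499), and Dusp1, a MAP kinase phosphatase (0.39, adjusted p = 0.0478). Fos and Egr1, which lead the serum response, differed by 0.03 (95% interval -0.09 to 0.15) and 0.00 (95% interval -0.18 to 0.19). Ccn2 lost its call when any 1 AgNP array, any 1 Ag+ array or control replicate 2 or 3 was left out (difference 0.45 to 0.52). Klf6 and Dusp1 lost their calls whichever of the 9 arrays was left out (differences 0.42 to 0.54 and 0.35 to 0.45). A further probe set of Ccn2 differed by -0.18 (adjusted p = 0.51). Fewer cells of a type and less RNA per cell cannot be told apart in these bulk samples, which holds for the cell type genes that follow. The paper reports, from a viability assay, that more cells of EBs died with Ag+ than with AgNPs at this equal mass dose. Its flow cytometry at the same dose differed. Cells stained for apoptosis and for mitochondrial superoxide were significantly more frequent with AgNPs than in its controls. With Ag+ neither stain changed significantly. The paper also saw cells fall off the outer shell with Ag+ already below this dose, and with AgNPs only above 5.0 µg/ml. Whether cell death or such loss entered the differences was not tested.

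**Figure D2:**
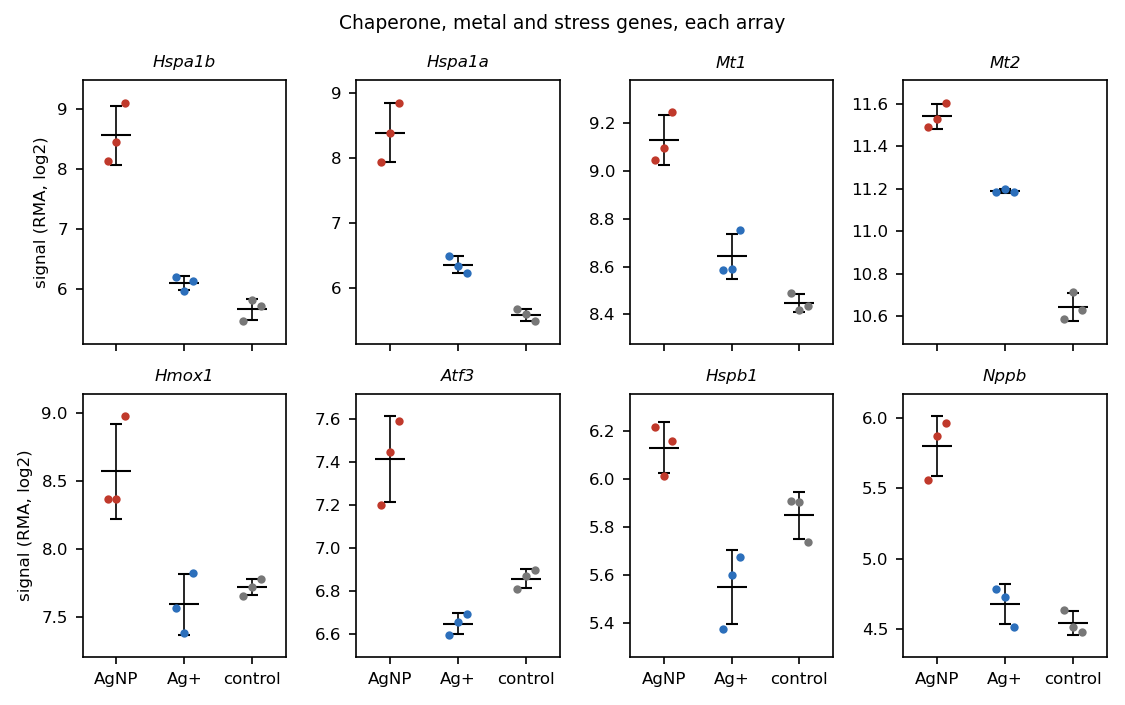
RMA signal (log2, y axis) of 8 chaperone, metal and stress genes on each array, in columns for AgNP, Ag+ and control, with bars for mean ± SD of 3 arrays. The AgNP points of Hspa1b, from 8.14 to 9.10, lie above all other points, and for Mt2 the AgNP points (11.49 to 11.60) lie above the Ag+ points (11.18 to 11.20), with the controls below both.

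Several genes of the endocytic receptor complex of visceral endoderm were higher with AgNPs than with Ag+: 4 of 10 measured were called higher and 0 lower, and the list median was 0.55. The AgNP arrays were all above the Ag+ arrays in 8 and all below in 1 (6.99% and 5.61% of all genes). Beside Cubn the called genes included Lrp2, the megalin receptor that carries cubilin into the cell, at 8.36, 7.78 and 7.57 with AgNPs, against 6.58, 5.74 and 5.49 with Ag+ and 8.36, 8.01 and 7.64 in the controls. The AgNP arrays overlapped the controls and lay above all Ag+ arrays, by 1.97 ± 0.30 (SE, adjusted p = 0.0345), 3.91-fold. Dab2, the adaptor that links megalin to clathrin, had 8.17, 7.86 and 7.87 in the AgNP arrays, against 6.44, 6.38 and 6.40 in the Ag+ arrays, and 8.24, 8.17 and 8.10 in the controls. The AgNP and control arrays met near 8.17, the Ag+ arrays lay below both, and the difference was 1.56 ± 0.09 (SE, adjusted p = 0.000388), 2.95-fold. Amn, which encodes amnionless, the membrane anchor of cubilin, had 6.05, 5.80 and 5.80 with AgNPs and 4.93, 5.17 and 5.22 with Ag+, with 5.82, 5.68 and 5.73 in the controls, and AgNPs exceeded Ag+ by 0.77 ± 0.10 (SE, adjusted p = 0.0125). Lrpap1, the chaperone of megalin, and Myo6, a motor of endocytic vesicles, differed by 0.57 (95% interval 0.33 to 0.81) and 0.54 (95% interval 0.32 to 0.76) without passing. Lrp2 lost its call when any 1 AgNP array, Ag+ replicate 2 or 3 or control replicate 2 was left out (difference 1.74 to 2.13). In the fit of all arrays with the replicate as a block, Lrp2 kept its call. Amn lost its call when Ag+ replicate 2 was left out (difference 0.81). The calls of Cubn and Dab2 held whichever array was left out.

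Some lysosomal genes were also higher with AgNPs. Of 26 measured, 6 were called higher and 0 lower, and in all 26 the difference was above 0, from 0.03 (the membrane protein gene Lamp2) to 1.71, with a median of 0.21. In 16 of them the AgNP arrays lay above all Ag+ arrays, as in 6.99% of all genes. Ctsh, the aminopeptidase cathepsin H, had 7.67, 7.43 and 7.30 with AgNPs, against 5.96, 5.83 and 5.49 with Ag+ and 7.89, 7.49 and 7.35 in the controls. Lgmn, the asparaginyl endopeptidase legumain, had 9.33, 9.08 and 9.01 in the AgNP arrays, against 8.06, 7.74 and 7.95 in the Ag+ arrays, and 9.23, 9.11 and 8.99 in the controls. In both, AgNP and control arrays overlapped above the Ag+ arrays, by 1.71 ± 0.16 (SE, adjusted p = 0.00303) for Ctsh and 1.23 ± 0.11 (SE, adjusted p = 0.00235) for Lgmn. Ctsc, the dipeptidyl peptidase cathepsin C that activates serine proteases, had 7.88, 7.52 and 7.63 with AgNPs and 6.45, 6.12 and 6.21 with Ag+, with 8.15, 7.87 and 7.58 in the controls, a difference of 1.42 ± 0.15 (SE, adjusted p = 0.00543). Ctsl, the endopeptidase cathepsin L, differed by 0.62 ± 0.07 (SE, adjusted p = 0.00608). These 4 calls held whichever array was left out. Ctsz, a carboxypeptidase cathepsin, differed by 0.55 (adjusted p = 0.0279) and Neu1, lysosomal sialidase, by 0.36 (adjusted p = 0.0499). Ctsz lost its call when any 1 AgNP array, any 1 Ag+ array or control replicate 2 was left out (difference 0.47 to 0.59). Neu1 lost its call whichever of the 9 arrays was left out (difference 0.32 to 0.39). Lamp1, a membrane protein gene, differed by 0.24 (95% interval 0.09 to 0.39) and prosaposin (Psap) by 0.05 (95% interval -0.12 to 0.21), neither called.

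Enzymes and carriers of the brush border and related epithelia gave 5 higher calls of 16, 0 lower, and a median of 0.22. Npl, which splits sialic acid, had 7.95, 7.42 and 7.43 with AgNPs, against 5.81, 5.45 and 5.58 with Ag+ and 7.95, 7.54 and 7.43 in the controls. Dpp4, a membrane dipeptidase, had 6.84, 6.49 and 6.59 in the AgNP arrays, against 4.79, 4.66 and 4.61 in the Ag+ arrays, and 6.92, 6.61 and 6.46 in the controls. For both genes, the AgNP and control arrays overlapped and the Ag+ arrays stood apart below, with differences of 1.98 ± 0.18 (SE, adjusted p = 0.0021) for Npl and 1.95 ± 0.13 (SE, adjusted p = 0.000802) for Dpp4, 3.96-fold and 3.87-fold. Aqp8, a water channel, had 6.28, 6.06 and 5.86 with AgNPs and 4.87, 4.82 and 4.47 with Ag+, with 6.08, 5.93 and 5.83 in the controls, a difference of 1.34 ± 0.13 (SE, adjusted p = 0.00349). Enpep, aminopeptidase A, had 5.10, 5.01 and 5.17 with AgNPs, against 4.33, 4.18 and 4.36 with Ag+ and 4.79, 4.85 and 4.79 in the controls, and in this gene all AgNP arrays also exceeded the controls. It differed between the treatments by 0.81 ± 0.07 (SE, adjusted p = 0.00188). Slc23a1, a vitamin C carrier, was the fifth, at 0.70 (adjusted p = 0.0478). Slc23a1 lost its call whichever of the 9 arrays was left out (difference 0.57 to 0.76). The facilitative glucose carrier gene Slc2a2 differed by -0.03 (95% interval -0.29 to 0.23).

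**Figure D3:**
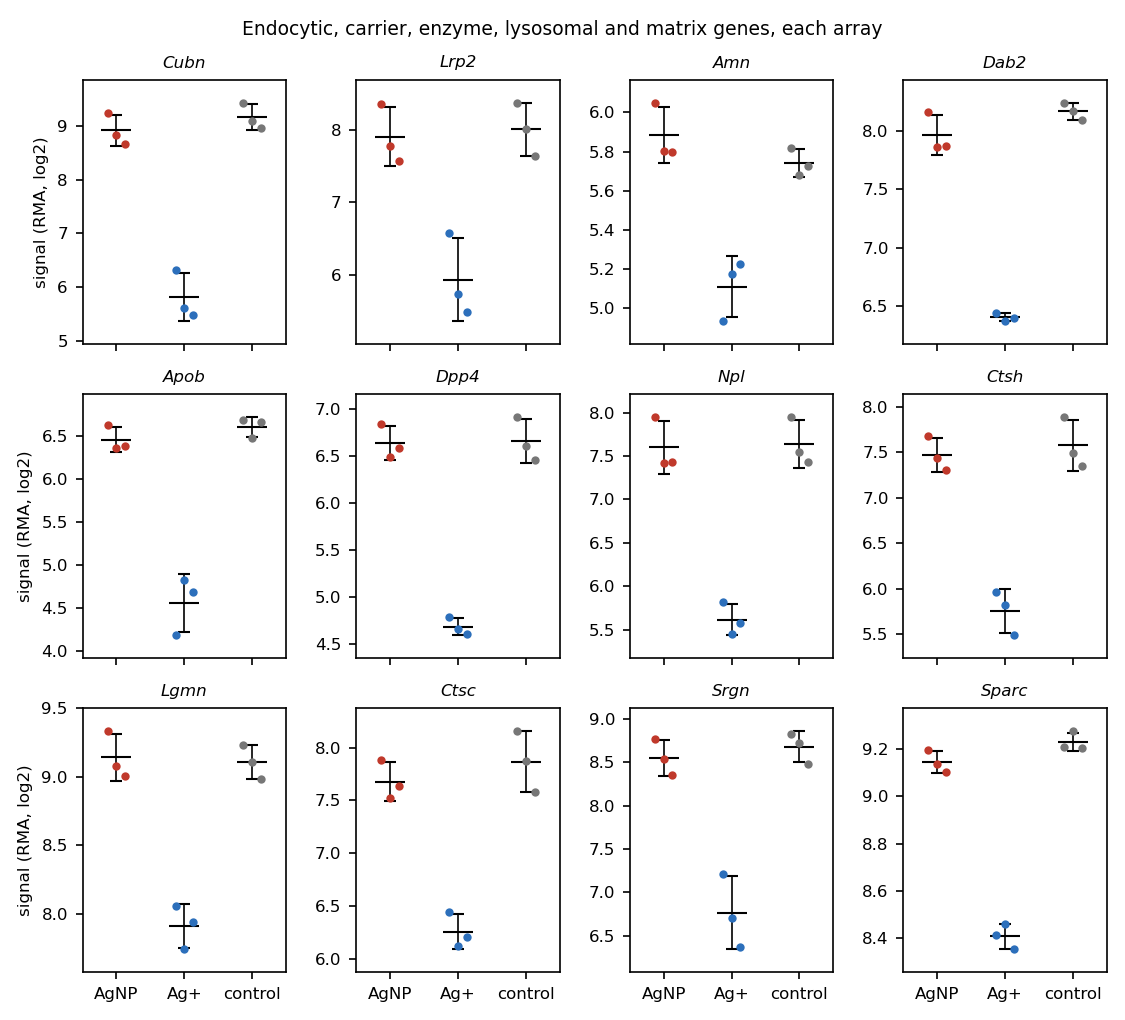
RMA signal (log2, y axis) of 12 endocytic, carrier, enzyme, lysosomal and matrix genes on each array, in columns for AgNP, Ag+ and control, with bars for mean ± SD of 3 arrays. In each panel the 3 Ag+ points lie below the AgNP and control points, as for Cubn, at 5.49 to 6.32 with Ag+.

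Secreted carriers of visceral endoderm were split, with 3 higher calls and 1 lower of 20 and a median of 0.02. Apob, the structural protein of lipoproteins, had 6.63, 6.37 and 6.39 with AgNPs, against 4.18, 4.82 and 4.68 with Ag+ and 6.68, 6.47 and 6.67 in the controls, with a difference of 1.90 ± 0.15 (SE, adjusted p = 0.00184), 3.74-fold, and its call held whichever array was left out. Ttr, the thyroxine carrier transthyretin, had 6.46, 6.34 and 6.56 with AgNPs and 5.78, 5.80 and 5.54 with Ag+, with 6.82, 6.71 and 7.02 in the controls. The AgNP arrays lay between the Ag+ arrays and the controls, 0.75 ± 0.10 (SE, adjusted p = 0.0213) above Ag+. Spink1, a trypsin inhibitor, differed by 0.71 (adjusted p = 0.014). Vtn, the adhesive plasma protein vitronectin, went the other way, with 4.74, 5.12 and 5.10 in the AgNP arrays, against 5.95, 6.01 and 6.79 in the Ag+ arrays, and 4.68, 4.61 and 4.79 in the controls. Its Ag+ arrays were above all others, and AgNPs differed from Ag+ by -1.27 ± 0.20 (SE, adjusted p = 0.0389). Ttr lost its call when any 1 AgNP array or Ag+ replicate 2 or 3 was left out (difference 0.67 to 0.81). Spink1 lost its call when AgNP replicate 2 or 3 or Ag+ replicate 1 or 2 was left out (difference 0.63 to 0.69). Vtn lost its call when any 1 AgNP array, Ag+ replicate 2 or any 1 control array was left out (difference -1.38 to -1.14). Afp, the alpha-fetoprotein gene, had 4.53 ± 0.07 with AgNPs, against 4.38 ± 0.13 with Ag+ and 4.45 ± 0.18 in the controls (SD, n = 3 each) and differed by 0.15 (95% interval -0.08 to 0.38). Of 9 visceral endoderm markers, 5 were called higher with AgNPs (Cubn, Apob, Amn, Ttr and Gata4), with a list median of 0.62 and summed signals of 60.2 to 61.4 with AgNPs, against 52.4 to 53.6 with Ag+ and 61.4 to 62.6 in the controls. Sox17, an endoderm transcription factor, differed by -0.20 (95% interval -0.36 to -0.04), and Hnf4a, a factor of differentiated endoderm, by 0.21 (95% interval 0.00 to 0.43).

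Basement membrane and parietal endoderm genes gave 4 higher calls of 17, 0 lower, and a median of 0.22, with 10 genes whose AgNP arrays all lay above the Ag+ arrays (6.99% of all genes). Srgn, the granule proteoglycan serglycin, had 8.77, 8.54 and 8.35 with AgNPs, against 7.21, 6.70 and 6.37 with Ag+ and 8.83, 8.73 and 8.48 in the controls, and Sparc, a collagen-binding matricellular protein, had 9.20, 9.14 and 9.10 in the AgNP arrays, against 8.41, 8.46 and 8.35 in the Ag+ arrays, and 9.21, 9.28 and 9.21 in the controls. In both the AgNP arrays lay above all Ag+ arrays, by 1.79 ± 0.20 (SE, adjusted p = 0.00598) and 0.74 ± 0.06 (SE, adjusted p = 0.00164), and both calls held whichever array was left out. In the fit of the 6 arrays alone Srgn did not pass (adjusted p = 0.0566) and Sparc did (adjusted p = 0.0237). Col4a1 and Col4a2, the paired chains of collagen IV, differed by 0.54 (adjusted p = 0.0363) and 0.63 (adjusted p = 0.0451). Col4a1 lost its call when any 1 AgNP array, any 1 Ag+ array or control replicate 2 was left out (difference 0.48 to 0.59). Col4a2 lost its call when any 1 AgNP array, Ag+ replicate 2 or 3 or any 1 control array was left out (difference 0.56 to 0.69). Lama1, the laminin chain of the first basement membranes, differed by 0.72 (95% interval 0.36 to 1.08), which did not pass. Fibrillar and other collagens gave 0 calls of 13 in limma, 2 lower at an unadjusted p under 0.05, and 13 intervals within 1.5-fold.

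Some leading genes belonged to none of these groups. Nxf7, of a family of RNA export factors, had 6.53, 6.37 and 6.37 with AgNPs, against 5.09, 5.23 and 4.61 with Ag+ and 6.70, 6.63 and 6.53 in the controls. Its AgNP and control arrays lay near each other, and the difference from Ag+ was 1.45 ± 0.14 (SE, adjusted p = 0.00335), which held whichever array was left out. Klb, the FGF coreceptor beta-klotho, differed by 1.33 (adjusted p = 0.0331) and Pga5, a pepsinogen, by 1.29 (adjusted p = 0.0354). Klb lost its call when any 1 AgNP array, Ag+ replicate 1 or 3 or control replicate 2 or 3 was left out (difference 1.18 to 1.44). Pga5 lost its call when any 1 AgNP array, any 1 Ag+ array or control replicate 2 was left out (difference 1.08 to 1.39).

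Among BMP effectors and targets and factors of lateral and cardiac mesoderm, 3 of 16 and 5 of 19 were called higher with AgNPs, Tbx3 in both lists, and 0 lower. In Tbx20, Tbx3, Smad7 and Id1 the AgNP arrays lay between Ag+ and control. Tbx20, a transcription factor of the heart field, had 6.72, 6.91 and 7.23 with AgNPs, against 5.69, 5.66 and 5.52 with Ag+ and 7.86, 8.29 and 8.49 in the controls. The 3 groups did not overlap, and AgNPs exceeded Ag+ by 1.33 ± 0.17 (SE, adjusted p = 0.0122), 2.51-fold. Tbx3, a T-box repressor induced by BMP, had 7.37, 7.95 and 7.90 in the AgNP arrays, against 6.57, 6.39 and 6.28 in the Ag+ arrays, and 8.44, 8.81 and 9.02 in the controls, again in 3 separate ranges, with a difference of 1.33 ± 0.18 (SE, adjusted p = 0.0195). Smad7, the inhibitory Smad that BMP and TGF-beta induce, had 5.80, 5.80 and 5.79 with AgNPs and 5.25, 4.83 and 5.14 with Ag+, with 6.36, 6.65 and 6.61 in the controls, 0.72 ± 0.11 (SE, adjusted p = 0.0363) higher with AgNPs. Id1, an inhibitor of bHLH factors and a direct BMP target, differed by 0.65 (adjusted p = 0.0389). The median over the 16 was 0.30. The AgNP arrays lay above all Ag+ arrays in 9 of the 16 and below them in 1 (6.99% and 5.61% of all genes). At an unadjusted p under 0.05, 9 were higher and 2 lower (Id4, -0.33, and Atoh8, -0.68), and 0 of the 3 calls held whichever array was left out. Id2, Id3 and Msx2, further BMP targets, differed by 0.73 (95% interval 0.33 to 1.13), 0.42 (95% interval 0.21 to 0.63) and 1.04 (95% interval 0.49 to 1.58) without passing. Tbx20 lost its call when AgNP replicate 2 or Ag+ replicate 2 or 3 was left out (difference 1.27 to 1.35). Tbx3 lost its call when AgNP replicate 2 or 3, Ag+ replicate 2 or 3 or control replicate 2 was left out (difference 1.22 to 1.33). Smad7 lost its call when any 1 AgNP array, Ag+ replicate 2 or 3 or control replicate 2 or 3 was left out (difference 0.59 to 0.75). Id1 lost its call when AgNP replicate 2 or 3, any 1 Ag+ array or any 1 control array was left out (difference 0.56 to 0.72).

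Of 19 measured lateral and cardiac factors, 5 were called higher (Tbx20, Tbx3, Nppb, Prdm6 and Gata4) and 0 lower, at a median of 0.11. Differences were below 0 in 7, and in 3 of these, Nkx2-5 (-0.14), Mesp1 (-0.19) and Prrx1 (-0.23), the AgNP arrays lay below all Ag+ arrays, against 8 genes where they lay above (5.61% and 6.99% of all genes). Nppb, the natriuretic peptide gene, had 5.56, 5.87 and 5.96 with AgNPs, against 4.78, 4.73 and 4.52 with Ag+ and 4.64, 4.51 and 4.48 in the controls. Unlike the T-box genes, its Ag+ and control arrays overlapped and the AgNP arrays stood above both, by 1.12 ± 0.11 (SE, adjusted p = 0.00361) over Ag+, and the call held whichever array was left out. Prdm6, a repressor of smooth muscle genes, differed by 0.85 (adjusted p = 0.017), and Gata4, shared by heart and endoderm, by 0.62 (adjusted p = 0.0219). Prdm6 lost its call when AgNP replicate 2 or 3 or any 1 Ag+ array was left out (difference 0.79 to 0.91). Gata4 lost its call when any 1 AgNP array, Ag+ replicate 2 or 3 or control replicate 2 was left out (difference 0.54 to 0.64). Hand1, a bHLH factor of lateral and extraembryonic mesoderm, had 6.82, 7.23 and 7.66 with AgNPs and 5.89, 6.01 and 6.07 with Ag+, with 7.72, 8.41 and 8.53 in the controls. Each AgNP array lay above each Ag+ array and below each control, and the difference of 1.24 (95% interval 0.71 to 1.78) did not pass (adjusted p = 0.075). Kdr, the VEGF receptor of early mesoderm and endothelium, had 8.15, 8.49 and 8.60 in the AgNP arrays, against 7.50, 7.48 and 7.00 in the Ag+ arrays, and 9.19, 9.39 and 9.03 in the controls, 1.09 ± 0.16 (SE, adjusted p = 0.031) higher with AgNPs. Kdr lost its call when AgNP replicate 2 or 3, Ag+ replicate 2 or 3 or control replicate 1 or 2 was left out (difference 0.92 to 1.16). It was the only call among 24 genes of VEGF signalling, blood and endothelium. Contractile genes gave 0 calls of 19 in limma, with 3 higher and 1 lower at an unadjusted p under 0.05, and the sarcomere gene Tnnt2 differed by -0.22 (95% interval -0.48 to 0.03).

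Among BMP ligands, receptors and antagonists the calls were split, 2 higher and 1 lower of 20. Bmper, an extracellular BMP regulator, had 6.55, 6.59 and 6.63 with AgNPs, against 5.99, 5.68 and 5.57 with Ag+ and 7.03, 7.19 and 7.06 in the controls, 0.85 ± 0.10 (SE, adjusted p = 0.0101) higher with AgNPs than with Ag+. Bmp6, a ligand, differed by 0.47 (adjusted p = 0.0389). Chrd, the secreted antagonist chordin of the node, had 6.24, 6.29 and 6.25 with AgNPs and 6.79, 6.75 and 6.96 with Ag+, with 5.84, 5.77 and 5.84 in the controls. The Ag+ arrays were highest, the AgNP arrays lay between them and the controls without overlap, and AgNPs differed from Ag+ by -0.58 ± 0.07 (SE, adjusted p = 0.00795), a call that held whichever array was left out but not in the fit of the 6 arrays alone (adjusted p = 0.0527). Bmper lost its call when AgNP replicate 2 or 3 or Ag+ replicate 2 was left out (difference 0.81 to 0.85). Bmp6 lost its call whichever of the 9 arrays was left out (difference 0.39 to 0.53). Cfc1, the Nodal coreceptor Cryptic, was higher by 0.67 (adjusted p = 0.0213), and Noto, a node transcription factor, differed by -0.66 (95% interval -1.02 to -0.30) without passing. Wnt3, the streak-inducing ligand, was the only call of 28 Wnt pathway genes, at 0.74 (adjusted p = 0.0245). Cfc1 lost its call when any 1 AgNP array, Ag+ replicate 2 or 3 or control replicate 2 was left out (difference 0.62 to 0.67). Wnt3 lost its call when any 1 AgNP array, Ag+ replicate 2 or 3 or control replicate 2 was left out (difference 0.66 to 0.79).

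Some paraxial mesoderm genes were lower with AgNPs than with Ag+. Of 22 measured, 4 were called lower and 0 higher, 14 had AgNP arrays all below the Ag+ arrays (5.61% of all genes did so) and 0 all above, and the median was -0.37. Beside Tcf15, they were Foxc2, a forkhead factor of presomitic mesoderm, Dll1 and Eya1. Foxc2 had 6.91, 7.31 and 7.51 with AgNPs, against 8.14, 8.49 and 8.58 with Ag+ and 6.52, 6.40 and 6.16 in the controls. The 3 groups were separate, with AgNP in the middle, and AgNPs differed from Ag+ by -1.16 ± 0.17 (SE, adjusted p = 0.0274), 2.23-fold lower. Eya1, a transcriptional coactivator of mesoderm and placodes, differed by -0.47 (adjusted p = 0.0443). Foxc2 lost its call when AgNP replicate 1 or 2, Ag+ replicate 2 or 3 or control replicate 2 was left out (difference -1.19 to -0.99). Eya1 lost its call whichever of the 9 arrays was left out (difference -0.52 to -0.40). Of the 4 calls, 0 held whichever of the 9 arrays was left out. Other members with differences of like size did not pass. Meox1, a somite homeobox gene, had 4.54, 4.92 and 5.43 in the AgNP arrays, against 5.58, 6.43 and 6.66 in the Ag+ arrays, and 3.86, 4.72 and 4.64 in the controls, a difference of -1.26 (95% interval -2.01 to -0.52), and Aldh1a2, the retinoic acid synthesising enzyme of somites, had 7.22, 7.97 and 8.38 with AgNPs and 8.52, 8.87 and 9.26 with Ag+, with 6.27, 6.57 and 7.11 in the controls, a difference of -1.03 (95% interval -1.73 to -0.33). Foxc1 and Tbx6, factors of presomitic mesoderm, differed by -0.82 (95% interval -1.22 to -0.43) and -0.38 (95% interval -0.60 to -0.17).

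Notch genes gave 3 lower calls of 21 and 0 higher, with a median of -0.12. Dll1, the Notch ligand of presomitic mesoderm, had 6.69, 6.85 and 6.78 with AgNPs, against 7.43, 7.48 and 7.45 with Ag+ and 6.23, 5.84 and 5.77 in the controls. The AgNP arrays lay between Ag+ and control without overlap, -0.68 ± 0.11 (SE, adjusted p = 0.0389) from Ag+. Lfng, the glycosyltransferase that tunes Notch in the segmentation clock, had 6.96, 6.99 and 7.02 in the AgNP arrays, against 7.44, 7.53 and 7.48 in the Ag+ arrays, and 6.67, 6.64 and 6.72 in the controls. It showed the same order of groups in a narrower range, -0.49 ± 0.05 (SE, adjusted p = 0.00608), and its call held whichever array was left out. Notch1, a receptor, differed by -0.52 (adjusted p = 0.0486). Dll1 lost its call when any 1 AgNP array, any 1 Ag+ array or control replicate 2 was left out (difference -0.72 to -0.64). Notch1 lost its call when any 1 AgNP array, Ag+ replicate 2 or 3 or any 1 control array was left out (difference -0.57 to -0.43). A further probe set of Dll1 differed by -0.24 (adjusted p = 0.304). The clock gene Hes7 differed by -0.23 (95% interval -0.47 to 0.01) and the target genes Hey1 and Hes5 by -0.12 (95% interval -0.27 to 0.03) and -0.07 (95% interval -0.33 to 0.19). In the hedgehog list 1 of 15 was called, Ptch1, the receptor that is also a target, at 8.22, 8.31 and 8.37 with AgNPs and 8.81, 8.88 and 8.93 with Ag+, with 8.36, 8.34 and 8.34 in the controls. Here AgNP and control arrays overlapped and the Ag+ arrays lay above, with a difference of -0.57 ± 0.06 (SE, adjusted p = 0.00505) that held whichever array was left out. A probe set that names both Shh, a hedgehog ligand, and 9530036O11Rik, and so cannot be assigned to either, was also called and stood outside the list. It had 5.56, 5.93 and 5.92 with AgNPs, against 6.85, 7.01 and 7.43 with Ag+ and 5.37, 5.18 and 5.91 in the controls, with the Ag+ arrays above all others. Its difference was -1.30 ± 0.20 (SE, adjusted p = 0.037), and 8 of the 9 fits with 1 array left out lost the call (-1.42 to -1.13). The probe set that names Shh alone differed by -0.20 (95% interval -0.49 to 0.08) and was not called. Gli1, a transcription factor and target, differed by -0.37 (95% interval -0.60 to -0.15), and Hhip, a hedgehog-binding inhibitor, by -0.56 (95% interval -0.95 to -0.18).

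**Figure D4:**
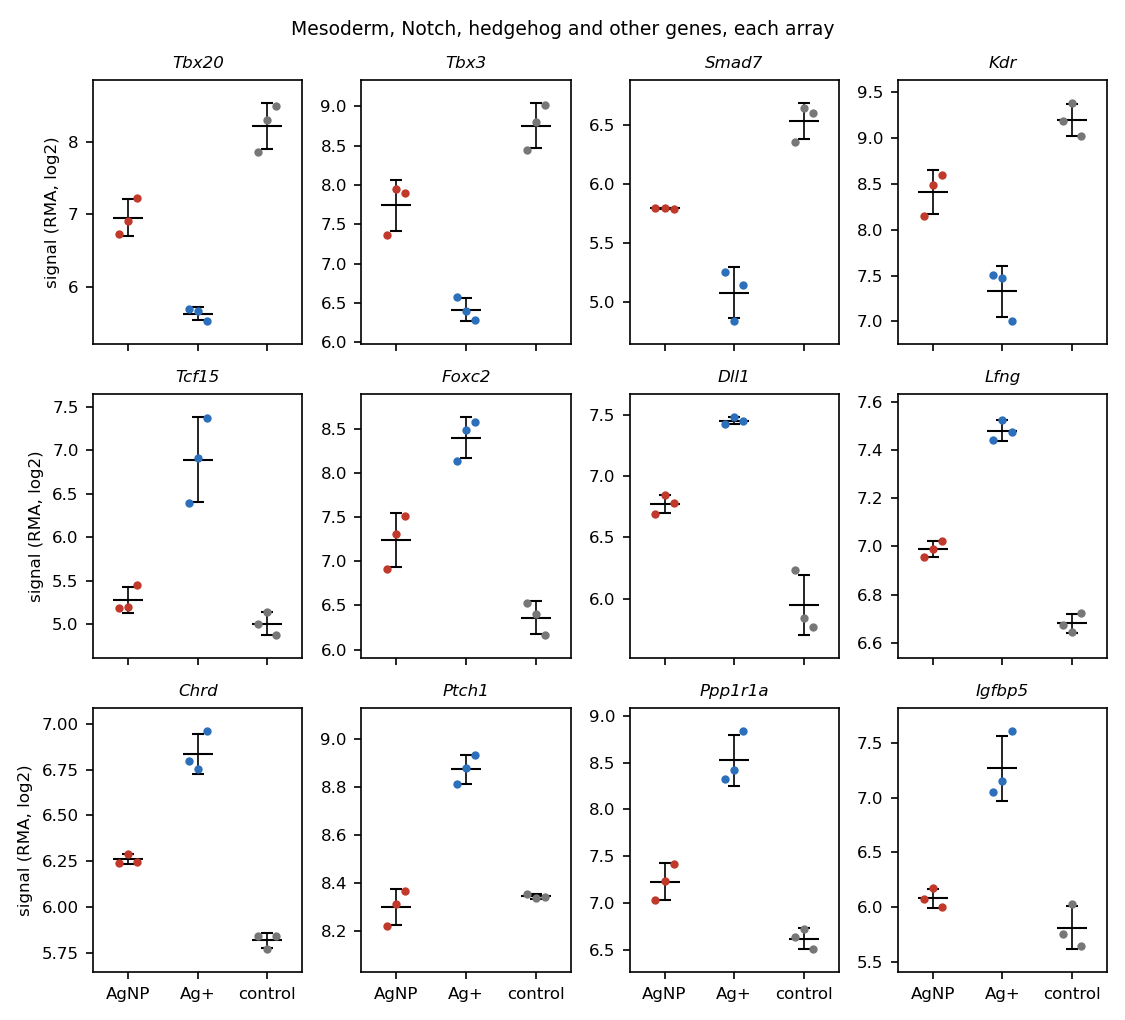
RMA signal (log2, y axis) of 12 mesoderm, Notch, hedgehog and other genes on each array, in columns for AgNP, Ag+ and control, with bars for mean ± SD of 3 arrays. The AgNP points lie between Ag+ and control in several panels, such as Tbx20, at 6.72 to 7.23 with AgNPs, and Dll1, at 6.69 to 6.85.

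Further genes lower with AgNPs encode secreted and signalling proteins. Ppp1r1a, an inhibitor of protein phosphatase 1 that protein kinase A activates, had 7.03, 7.24 and 7.42 with AgNPs, against 8.32, 8.42 and 8.84 with Ag+ and 6.64, 6.72 and 6.50 in the controls. Its Ag+ arrays were above all others, and AgNPs differed from Ag+ by -1.30 ± 0.14 (SE, adjusted p = 0.00588), 2.47-fold lower, which held whichever array was left out but not in the fit of the 6 arrays alone (adjusted p = 0.0566). Adcy8, an adenylyl cyclase, differed by -0.80 (adjusted p = 0.0389), and these 2 were the calls among 17 genes of cAMP signalling. Igfbp5, which encodes an IGF binding protein, had 6.07, 6.17 and 6.00 in the AgNP arrays, against 7.05, 7.15 and 7.61 in the Ag+ arrays, and 5.76, 6.03 and 5.64 in the controls, a difference of -1.19 ± 0.15 (SE, adjusted p = 0.0112). Smoc1 and Smoc2, matricellular calcium-binding proteins, differed by -0.96 (adjusted p = 0.0438) and -0.87 (adjusted p = 0.0208). Fgf14, an intracellular member of the FGF family, had 5.66, 5.82 and 5.82 with AgNPs and 6.57, 6.51 and 6.70 with Ag+, with 4.92, 5.17 and 5.16 in the controls, a difference of -0.83 ± 0.09 (SE, adjusted p = 0.00543), and Cthrc1, a secreted collagen-repeat protein, had 6.66, 6.75 and 6.75 with AgNPs, against 7.46, 7.37 and 7.52 with Ag+ and 6.57, 6.63 and 6.53 in the controls, a difference of -0.73 ± 0.06 (SE, adjusted p = 0.00188). Both held whichever array was left out, as did Cobl, an actin nucleator, at -0.72 (adjusted p = 0.00188). Igfbp5 lost its call when AgNP replicate 1 or 3 was left out (difference -1.19 to -1.15). Adcy8 lost its call when AgNP replicate 1 or 2, any 1 Ag+ array or any 1 control array was left out (difference -0.83 to -0.69). Smoc1 lost its call when any 1 AgNP array, Ag+ replicate 2 or 3 or any 1 control array was left out (difference -1.06 to -0.78). Smoc2 lost its call when AgNP replicate 1 or 3 or Ag+ replicate 2 or 3 was left out (difference -0.86 to -0.80).

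Selenop, the selenium transport protein, was lower with AgNPs, with a difference of -0.99 ± 0.17 (SE, adjusted p = 0.0486), at 5.54, 5.74 and 5.92 with AgNPs and 6.44, 6.73 and 6.98 with Ag+, with 5.14, 5.47 and 5.68 in the controls. In the list of 26 selenoproteins and their machinery, it stood against 2 higher calls, the glutathione peroxidases Gpx3 (0.44, adjusted p = 0.0389) and Gpx1. Gpx1 had 8.84, 8.84 and 8.90 in the AgNP arrays, against 8.56, 8.48 and 8.57 in the Ag+ arrays, and 9.31, 9.37 and 9.40 in the controls. Both treatments lay below the controls, and AgNPs exceeded Ag+ by 0.32 ± 0.06 (SE, adjusted p = 0.0493). The remaining genes at the lower end were Prickle2, a planar polarity protein (-0.82, adjusted p = 0.0443), Dnajb13, a protein of ciliary axonemes (-0.74, adjusted p = 0.0307), Capsl (-0.63, adjusted p = 0.0136), Fam13a (-0.65, adjusted p = 0.0279) and Lypd6b (-0.65, adjusted p = 0.0459). Slit2, an axon guidance ligand, was lower, at -0.60 (adjusted p = 0.0319), and the guidance receptor gene Unc5b higher, at 0.62 (adjusted p = 0.0451), the 2 calls of 22 in that list. Selenop lost its call when any 1 AgNP array, Ag+ replicate 2 or 3 or control replicate 2 or 3 was left out (difference -1.08 to -0.85). Prickle2 lost its call when any 1 AgNP array, Ag+ replicate 2 or 3 or any 1 control array was left out (difference -0.84 to -0.68). Dnajb13 lost its call when any 1 AgNP array, Ag+ replicate 1 or 3 or any 1 control array was left out (difference -0.79 to -0.64). Capsl lost its call when AgNP replicate 2 or 3 or Ag+ replicate 2 or 3 was left out (difference -0.65 to -0.58). Fam13a lost its call when any 1 AgNP array, Ag+ replicate 2 or 3 or control replicate 2 was left out (difference -0.68 to -0.59). Slit2 lost its call when any 1 AgNP array, any 1 Ag+ array or control replicate 3 was left out (difference -0.62 to -0.57). Unc5b lost its call when any 1 AgNP array, any 1 Ag+ array or control replicate 2 was left out (difference 0.58 to 0.68). Gpx3, Gpx1 and Lypd6b lost their calls whichever of the 9 arrays was left out (differences 0.37 to 0.50, 0.30 to 0.34 and -0.75 to -0.56).

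**Figure D5:**
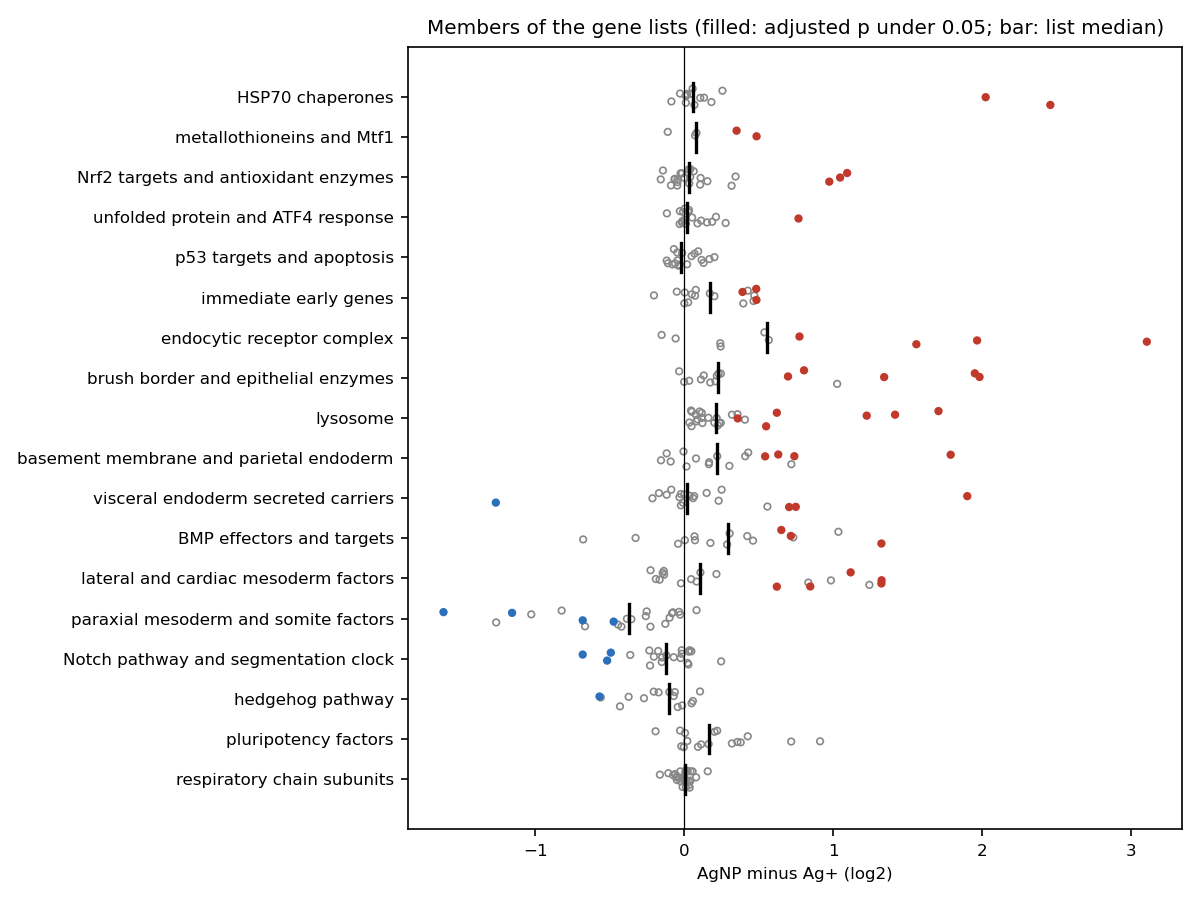
AgNP minus Ag+ (log2, x axis) of each measured member of 18 gene lists (rows), filled where the adjusted p was under 0.05 (limma), with a bar at the list median. The medians run from -0.37 (paraxial mesoderm and somite factors) to 0.55 (endocytic receptor complex).

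The controls took no part in the differences, and their place was then read beside them. Among the 92 probe sets called higher with AgNPs, the control mean was nearer to the AgNP mean in 81 and nearer to the Ag+ mean in 11, and among the 37 called lower it was nearer to AgNP in 36 and to Ag+ in 1. Over all named probe sets the control mean was nearer to AgNP in 57.7% of those above 0 and 53.7% of those below 0. The spread of the controls also enters the limma fit, so the calls are not independent of these arrays. The 11 that lay nearer to Ag+ were Hspa1b, Hspa1a, Hmox1, Nppb, Atf3, Mt1, Mt2, Plaur, Cxcl16, Fermt1 and Olfr837, and the 1 was Adam24. Olfr837 and Adam24 were dim, far below the median probe set (5.06). Olfr837 averaged 2.28 with AgNPs, 1.86 with Ag+ and 1.99 in the controls, and Adam24 2.69, 3.15 and 2.94. Of all called probe sets, 9 had a mean signal under 5 over the 9 arrays. For Hspa1b the means were 8.56 ± 0.49 with AgNPs, against 6.10 ± 0.11 with Ag+ and 5.66 ± 0.18 in the controls (SD, n = 3 each), and for Cubn, on the other side, 8.92 ± 0.30 with AgNPs, against 5.81 ± 0.45 with Ag+ and 9.16 ± 0.24 in the controls (SD, n = 3 each). Relative to the mean of the Ag+ arrays, the median over the 92 was 0.80, 0.67 and 0.71 on the AgNP arrays and 0.88, 0.86 and 0.80 on the controls. Over the 37 it was -0.65, -0.59 and -0.59 on the AgNP arrays and -0.81, -0.84 and -0.86 on the controls.

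Of the 44 gene and marker lists, 16 gave no call. Respiratory chain genes had 0 calls of 28 in limma, 0 at an unadjusted p under 0.05 and 28 intervals within 1.5-fold, with differences from -0.16 to 0.16. Cell cycle genes had 0 calls of 23, 2 higher at an unadjusted p under 0.05, and 21 intervals within 1.5-fold. Myc, the growth regulator, was the exception in size, with 7.48, 7.69 and 7.71 with AgNPs, against 6.97, 6.89 and 6.88 with Ag+ and 7.68, 8.27 and 8.12 in the controls, a difference of 0.72 (95% interval 0.41 to 1.02) that did not pass (adjusted p = 0.0726). In limma's fit of the 6 AgNP and Ag+ arrays alone Myc did pass (adjusted p = 0.0425). With the replicate as a block it did not (adjusted p = 0.059), nor with all probe sets of the arrays (adjusted p = 0.186). Pluripotency factors gave 0 calls of 17, 4 higher at an unadjusted p under 0.05, and a median of 0.16. Nanog, a core pluripotency factor, had 9.02, 8.03 and 7.55 in the AgNP arrays, against 7.99, 7.16 and 6.71 in the Ag+ arrays, and 8.50, 8.25 and 7.09 in the controls. Its replicates spread over more than a log2 unit in each group, the groups overlapped, and the interval of the difference was wide (-0.15 to 1.98 around 0.91). The signal fell from replicate 1 to replicate 3 in each group. In limma with the replicate as a block the adjusted p was 0.0533, against 0.68 without it. Sox2 differed by 0.02 (95% interval -0.52 to 0.56) and Pou5f1 by 0.20 (95% interval -0.07 to 0.48). Neural ectoderm genes gave 0 calls of 16, with 2 lower at an unadjusted p under 0.05, and retinoic acid genes 0 of 18, with 2 higher and 3 lower. Glycolysis and hypoxia genes gave 1 call of 17, Ndrg1, a hypoxia-induced gene (0.68, adjusted p = 0.0438), at a median of 0.21 with 7 intervals within 1.5-fold. Ndrg1 lost its call whichever of the 9 arrays was left out (difference 0.54 to 0.75), and a further probe set of Ndrg1 differed by 0.06 (adjusted p = 0.903). Summed over that list, signals were 134.7 to 143.3 with AgNPs, against 133.0 to 134.8 with Ag+ and 134.9 to 144.8 in the controls, so that the AgNP and control arrays spread more than the Ag+ arrays.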

How the data were processed

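RNA of EBs was hybridised to 9 Affymetrix Mouse Gene 2.0 ST arrays, 3 each for AgNPs, Ag+ and controls. The deposited values are log2 RMA signals that the authors made with Affymetrix Expression Console 1.3, already background-corrected and normalized. Groups were taken from the sample labels. Differences were group means of AgNP minus Ag+ in limma 3.58.1 (R 4.3.3), fitted on all 9 arrays with 3 group means over the 25341 named probe sets, with Benjamini-Hochberg adjustment over all of them and a threshold of 0.05. In a gene list, a gene was represented by its own probe set with the highest mean. The number of arrays limits the precision. Arrays were simulated with independent noise at each of 25341 probe sets and no replicate effect. On them, 70.1% of changes of 1.5-fold and 97.0% of changes of 2-fold were called. These shares may not hold for the real arrays. The p-values measure the spread between cultures of 1 line. Members and gene lists were chosen with earlier results of these data known. The text names the 18 highest and 18 lowest called differences with 1 named gene and arrays that did not overlap, called members of the lists described and up to 4 further members of each by smallest p, and fixed stress genes. Other genes were named after their values had been seen. Alternatives covered the arrays fitted, the replicate block, the variance prior, array weights, dim probe sets, scaling, the test and the fold threshold. Promoters were read from RefSeq with GRCm38.p6.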

Additional observations from a re-analysis of the deposited data

Results flagged for a closer look

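Probe sets with no gene name entered no comparison above. When all probe sets of the arrays were fitted together in limma, 7 of the 16004 unnamed ones differed between AgNPs and Ag+ at an adjusted p under 0.05, 4 higher and 3 lower, with sizes from 0.73 to 1.47 on the log2 scale. In all, 1123 unnamed probe sets had an unadjusted p under 0.05. They are reported because they lie outside the main measurement, and what they measure was not examined.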

How the results depend on the processing

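The count of 129 called probe sets depended on the fit. It was 44 with only the 6 AgNP and Ag+ arrays, 204 with a mean signal of at least 5, 47 with all probe sets of the arrays, 7 with limma's treat against a fold of 1.5, and 0 with the methods' t-test after adjustment, which gave 1236 at an unadjusted p under 0.05. Leaving out 1 array at a time gave 37 to 105. Other variance priors, array weights and scalings gave 112 to 173, and 185 were called when only the probe sets with the highest group means were kept, a number set to match the study, whose own filter on unexpressed probe sets has no cutoff in the sources used here. The 192 probe sets at a fold of 1.5 became 486 with all probe sets and 41 at a fold of 2, and 169 to 271 with 1 array left out. Of 74 called genes followed singly, 28 kept their call with 6 arrays and 29 with all probe sets. In direction 0 reversed, but this was no test in most settings. Many left the difference itself unchanged, and the AgNP and Ag+ arrays of called probe sets did not overlap, so leaving out 1 array could not reverse it. All 44 list medians stayed within the spread when probe sets of a gene were averaged.

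Replicate numbers are shared by the groups. The deviations of same-numbered arrays from their group means correlated by 0.126, 0.0722 and 0.0885 between AgNPs and Ag+ for numbers 1, 2 and 3. Between AgNPs and control they correlated by 0.233, -0.056 and 0.121, and between Ag+ and control by 0.174, -0.0042 and 0.0248. The main fit did not take the number as a pairing, although all 6 AgNP and Ag+ arrays correlated best with their own number. These correlations run over all named probe sets and do not show whether single genes share a replicate effect. The signals of Cubn, Lrp2, Srgn and Ctsh fell from replicate 1 to replicate 3 in each group. For these genes the adjusted p in limma was lower with the replicate as a block than without it. For others, such as Hspa1a and Apob, it was higher. The fits with 1 array left out had no such block. With the replicate block, 161 probe sets were called, 103 of them among the 129, and 65 of the 74 genes kept their call.

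Scanner files, slides and scan times were not used here, so batch was not tested.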

Other observations

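Of the called genes, 61 were in no gene list, 40 higher with AgNPs and 21 lower, and 11 of the 61 held whichever array was left out. In the fit of the 6 arrays alone, Dram1 and Kdelr3 among the 11 did not pass (adjusted p = 0.0612 and 0.0683). They were chosen after their values were seen. Beside Nxf7, Cobl and Cthrc1, they were all higher with AgNPs than with Ag+. Nrg1, the ErbB ligand neuregulin, averaged 6.78 with AgNPs, against 5.65 with Ag+ and 6.86 in the controls (adjusted p = 0.00151). Dram1, a lysosomal membrane protein tied to autophagy, averaged 5.85 with AgNPs, against 4.73 with Ag+ and 5.87 in the controls (adjusted p = 0.00675). Ifi30, a lysosomal thiol reductase, averaged 9.35 with AgNPs, against 8.68 with Ag+ and 9.26 in the controls (adjusted p = 0.00361). The others were Sgk3, a kinase of endosomes (0.75), Kdelr3, a receptor that returns proteins to the endoplasmic reticulum (0.64), Habp2, a secreted serine protease (0.96), Lrrn4, a leucine-rich repeat membrane protein (0.81), and S100a1, a calcium-binding protein (0.98), given as AgNP minus Ag+ on the log2 scale in limma.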
